A study of Homo sapiens with 4 samples.

Results

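The 9 genes described here encode parts of the MHC class I antigen presentation pathway: the light chain B2M, the heavy chains HLA-B, HLA-C, HLA-E and HLA-F, the peptide transporter subunits TAP1 and TAP2, the loading factor TAPBP (tapasin) and the peptide-trimming enzyme ERAP1. They were listed by symbol and found through their Ensembl identifiers among the 20307 genes of the table. The list was drawn up with the higher B2M and HLA-C of the FBXO32-depleted libraries already known. The differences of all 9 between the groups are therefore given as a description, without a test.

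Ribosome footprints, the mRNA stretches shielded from nuclease by a ribosome, were sequenced from PANC-1, an established human pancreatic ductal adenocarcinoma line. There were 2 libraries of FBXO32-depleted cells and 2 of negative control cells. FBXO32, an F-box protein, picks substrates for an SCF ubiquitin ligase, and the labels do not say how it was depleted or whether the depleted cells were 1 clone. In all 4 libraries ribosomes were held in place with 100 μg/mL cycloheximide for 2 min. Levels are TPM, a share of the library scaled by gene length, which keeps no read depth, so no counting interval can be given. A footprint level does not separate more mRNA from more translation of each mRNA, and in such bulk libraries more cells that carry a transcript and more footprints per cell cannot be told apart either.

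FBXO32 had 14.3 and 12.9 TPM in the depleted libraries, against 18.1 and 21.6 TPM in the controls, so both depleted values were below both controls, but the difference was short of the threshold (limma adjusted p = 0.429). The depletion is known from the labels alone. Of 11623 genes tested, 722 were higher and 2268 lower in the depleted libraries. These counts were 37 and 347 without negative control replicate 1. They were 174 and 1321 without depleted replicate 2, and 292 and 1515 with negative control replicate 2 left out. The labels name the PANC-1 line alone. Of 8 listed markers of pancreatic ductal carcinoma cells, KRT8 and KRT18 had the highest levels in every library. KRT8 had 344 and 120 TPM in the depleted libraries, against 506 and 476 TPM in the controls (limma adjusted p = 0.00574). KRT18 had 1035 and 362 TPM in the depleted libraries, against 1251 and 1098 TPM in the controls (limma adjusted p = 0.0402). SOX9, a ductal transcription factor, had 27.8 and 16.2 TPM in the depleted libraries, against 77.7 and 66.9 TPM in the controls (limma adjusted p = 0.000611). KRT19 overlapped between the groups. KRT7, EPCAM, CDH1 and MUC1 did not exceed 7.68 TPM in any library. Each of these 4 was higher in both depleted libraries than in both controls, by 2.15 to 3.16 times in the means, and none passed (limma adjusted p from 0.0544 to 0.182). Of all genes tested, 26.8% were likewise higher in both depleted libraries. The mesenchymal filament gene VIM had 1380 and 477 TPM in the depleted libraries, against 1754 and 1837 TPM in the controls (limma adjusted p = 0.00844). It exceeded KRT8 and KRT18 in every library. The second depleted library was the lowest of the 4 for KRT8, KRT18 and VIM. Of 14 leukocyte markers, 7 were listed at 0 in all libraries, among them the pan-leukocyte gene PTPRC, and the 14 together summed to 5.67 and 4.63 TPM in the depleted libraries, against 3.70 and 5.44 TPM in the controls. Single markers in that sum went opposite ways: the monocyte gene CD14 had 3.69 and 2.99 TPM in the depleted libraries, against 1.10 and 1.46 TPM in the controls, while the plasma cell gene JCHAIN was listed at 0 in both depleted libraries, against 0.748 and 2.09 TPM in the controls.

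Immunoglobulin constant-region genes, products of B lineage cells that were looked up after the values were seen, had a lower sum in the depleted libraries. The 14 in the table summed to 0.118 and 0.226 TPM in the depleted libraries, against 45.8 and 32.3 TPM in the controls. Of these, 10 were lower in both depleted libraries than in both controls, beside 37.6% of all genes tested. IGLC2 and IGLC3 had the same value as each other in every library, so they may not be separate measurements. IGKC, the kappa light chain, was listed at 0 in both depleted libraries, against 19.6 and 11.0 TPM in the controls. The part of these differences, and of those in the carcinoma and mesenchymal markers, in the class I values was not tested.

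Class I molecules show fragments of a cell's own proteins to cytotoxic T cells. Peptides cut by the proteasome are carried into the endoplasmic reticulum by the TAP1-TAP2 transporter, trimmed by ERAP1 and loaded, with the help of tapasin, onto a heavy chain paired with B2M. HLA-B and HLA-C are classical, highly variable heavy chains, while HLA-E and HLA-F are less variable and are ligands of natural killer cell receptors. Interferons raise many of these genes, through interferon regulatory factors (IRFs) and through NLRC5, which acts on a promoter module of X and Y boxes. Pancreatic cancer cells are known for low surface class I.

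B2M, the light chain shared by all class I molecules (ENSG00000166710, plus strand of GRCh38 chromosome 15, positions 44711487 to 44718877), had 7962 and 10255 TPM in the depleted libraries, against 2912 and 4159.6 TPM in the controls. Both depleted values lay above both control values, and B2M was the gene with the highest level of the 9 in every library. Its means were 9109 ± 1620 TPM in depleted cells and 3536 ± 882 TPM in controls (SD, n = 2 each), a 2.58-fold ratio. B2M ranked 3 and 4 among all genes in the depleted libraries, where it took 0.796% and 1.03% of the TPM, against ranks 39 and 21 with 0.291% and 0.416% in the controls. On the log2(TPM + 1) scale the difference, depleted minus control, was 1.38.

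HLA-C (ENSG00000204525, minus strand of chromosome 6, positions 31268749 to 31272130) had 166 and 191 TPM in the depleted libraries, against 52.2 and 58.5 TPM in the controls. The 2 depleted libraries differed by 0.21 and the 2 controls by 0.16 on the log2 scale, and the closest depleted and control values by 1.48. The rise of HLA-C in these libraries was known when it was listed, so nothing is read from that gap. The ratio of the means was 3.22 and the log2 difference 1.67.

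The RefSeq promoter sequences upstream of these genes are shown because they hold the elements through which class I genes are known to be switched on. Capitals mark a doubled IRF contact sequence (GAAA repeated after a gap of any 2 bases), AGTTTC, the start of the interferon-stimulated response element of class I heavy chain genes, TGACG, the core of the X2 box, and ATTGG, the Y box, each on either strand. The stretches end just before the most upstream annotated start of each gene in the window, and HLA-B is shown as a heavy chain with a smaller difference.
B2M, GRCh38.p14 chr15:44711365-44711486, plus strand: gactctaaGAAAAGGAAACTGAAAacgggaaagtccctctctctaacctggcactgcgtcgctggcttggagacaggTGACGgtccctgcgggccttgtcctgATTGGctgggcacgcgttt
HLA-C, GRCh38.p14 chr6:31272131-31272253, minus strand: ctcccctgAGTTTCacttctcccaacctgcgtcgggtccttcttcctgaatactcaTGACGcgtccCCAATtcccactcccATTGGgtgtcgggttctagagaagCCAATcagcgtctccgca
HLA-B, GRCh38.p14 chr6:31357189-31357344, minus strand: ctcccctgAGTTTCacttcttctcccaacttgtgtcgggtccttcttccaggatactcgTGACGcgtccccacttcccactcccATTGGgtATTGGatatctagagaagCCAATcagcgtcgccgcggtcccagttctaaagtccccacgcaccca

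**Figure D1:**
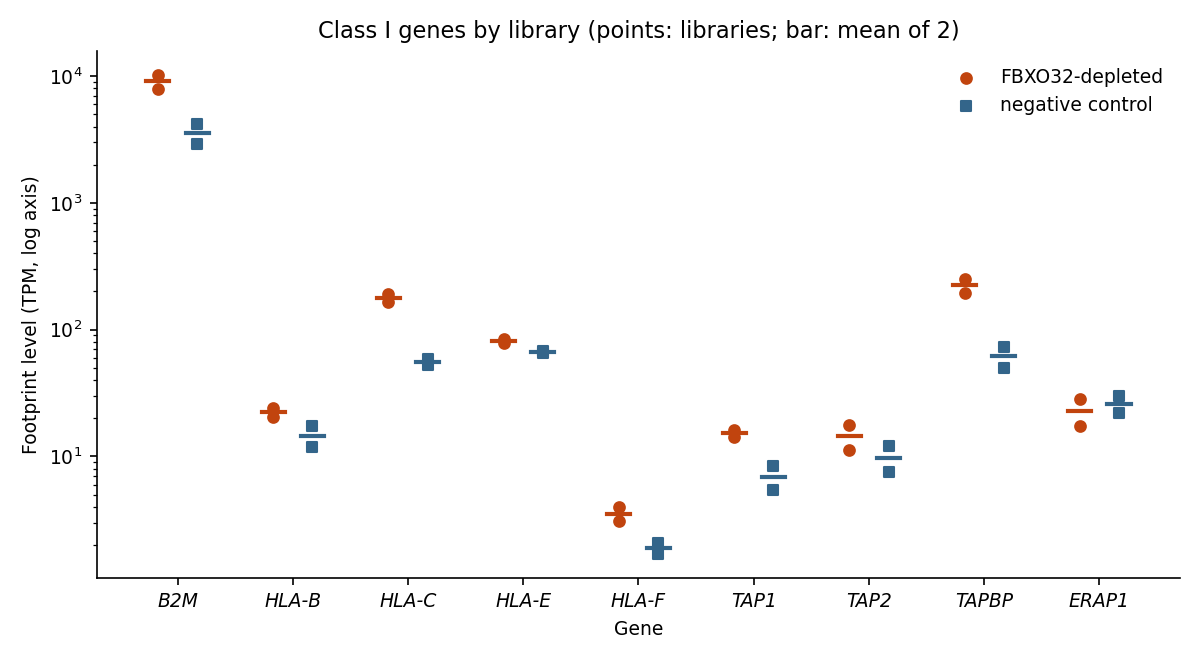
Footprint level of the 9 class I genes in each library (TPM, log axis), with FBXO32-depleted libraries as circles, negative controls as squares and a bar at the mean of the 2 libraries. B2M lies highest in both groups, and the groups overlap only for TAP2 and ERAP1.

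The other heavy chains differed less. HLA-B (ENSG00000234745, minus strand of chromosome 6, positions 31269491 to 31357188) had 20.4 and 24.3 TPM in the depleted libraries, against 17.3 and 12.0 TPM in the controls, a log2 difference of 0.59. The groups did not overlap, but the closest values, 20.4 in depleted cells and 17.3 TPM in controls, lay nearer to each other than the 2 controls did. HLA-E (ENSG00000204592, plus strand of chromosome 6, positions 30489467 to 30494205) had 84.7 and 79.1 TPM in the depleted libraries, against 65.4 and 67.9 TPM in the controls. That was the smallest positive log2 difference of the 9, 0.29, and both pairs of replicates lay within 0.10 of each other on that scale. HLA-F (ENSG00000204642, plus strand of chromosome 6, positions 29722775 to 29738528) was the lowest of the 9 in every library, with 3.12 and 3.96 TPM in the depleted libraries, against 2.06 and 1.70 TPM in the controls. Its log2 difference of 0.65 is compressed by the added 1 TPM, and the ratio of its means was 1.88.

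The shares of these 4 heavy chain genes in their summed TPM are given as a description. HLA-C was listed with its higher level already known, so its larger share follows from that choice. The sum covers these 4 genes only. The summed TPM of HLA-B, HLA-C, HLA-E and HLA-F was 274 and 299 in the depleted libraries, against 137 and 140.1 in the controls. HLA-C made up 60.5% and 64.1% of that sum in the depleted libraries, against 38.1% and 41.8% in the controls. For HLA-E the shares were 30.9% and 26.5% in the depleted libraries, against 47.7% and 48.5% in the controls, so the gene with the largest share was HLA-C in both depleted libraries and HLA-E in both controls. HLA-C stood at 1.96 and 2.42 times the HLA-E level in the depleted libraries, against 0.799 and 0.862 times in the controls. It stood at 8.13 and 7.88 times the HLA-B level in the depleted libraries, against 3.02 and 4.89 times in the controls. B2M exceeded the 4 summed heavy chains by 29.1 and 34.3 times in the depleted libraries, against 21.3 and 29.7 times in the controls, and these ratios overlapped between the groups.

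**Figure D2:**
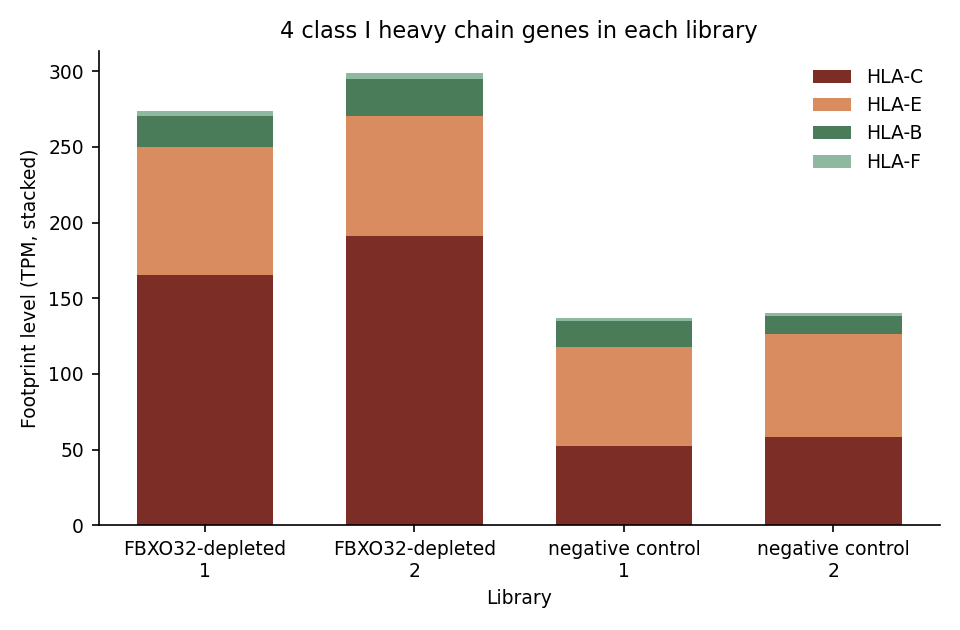
Stacked footprint levels (TPM) of HLA-C, HLA-E, HLA-B and HLA-F in the 2 FBXO32-depleted and the 2 negative control libraries. The HLA-C segment is 166 and 191 TPM in the depleted libraries, against 52.2 and 58.5 TPM in the controls, and the HLA-E segment 84.7 and 79.1 TPM in the depleted libraries, against 65.4 and 67.9 TPM in the controls.

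Heavy chain genes resemble each other and vary between people, so reads of one can be given to another. In the GENCODE 29 transcripts, 26.1% of the 28-nt stretches of the HLA-C coding sequence, 21.6% of those of HLA-B, 22.1% of those of HLA-E and 13.1% of those of HLA-F also occurred, base for base, in another gene. B2M, TAPBP and ERAP1 shared no 28-nt stretch. The minimum fragment was 17 nt in all libraries, and shorter stretches were not compared. How the deposited values treated shared reads, or the HLA alleles of PANC-1, is not given in the sources used here. In GENCODE 29 the span of HLA-B also overlaps most of that of HLA-C on the same strand, and the values of the 4 heavy chains are uncertain to that extent.

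TAPBP, which bridges the transporter to the empty heavy chain and edits its peptide cargo, had the largest difference of the 9. TAPBP (ENSG00000231925, minus strand of chromosome 6, positions 33299694 to 33314387) had 194 and 253 TPM in the depleted libraries, against 49.7 and 73.4 TPM in the controls. The lowest depleted value was 1.39 above the highest control value on the log2 scale. Its means were 224 ± 41.0 TPM in depleted cells and 61.6 ± 16.8 TPM in controls (SD, n = 2 each), a 3.63-fold ratio and a log2 difference of 1.86.

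The transporter subunits, which work as a pair, were alike in level but not in their separation between groups. TAP1 (ENSG00000168394, minus strand of chromosome 6, positions 32845209 to 32853978) had 16.3 and 14.2 TPM in the depleted libraries, against 5.48 and 8.35 TPM in the controls, with no overlap and a log2 difference of 1.06. TAP2 (ENSG00000204267, minus strand of chromosome 6, positions 32821833 to 32838780) had 17.6 and 11.3 TPM in the depleted libraries, against 7.51 and 12.1 TPM in the controls. The second depleted library lay below the second control for TAP2, and the log2 difference of 0.52 was smaller than the gap of 0.60 between the 2 depleted libraries. TAP1 stood at 0.925 and 1.26 times TAP2 in the depleted libraries, against 0.730 and 0.693 times in the controls. TAPBP exceeded TAP1 by 11.9 and 17.8 times in the depleted libraries, against 9.07 and 8.80 times in the controls. In GENCODE 29, 91.6% of the 28-nt stretches of TAP2 also occur in an overlapping gene model on the same strand (ENSG00000250264), which is listed at 0 in all 4 libraries. TAP1 overlaps PSMB9 on the opposite strand, and whether strand was used in counting is not given in the sources used here.

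ERAP1, the aminopeptidase that trims peptides to the length class I holds (ENSG00000164307, minus strand of chromosome 5, positions 96760810 to 96808100), was the only one of the 9 with a lower mean in the depleted libraries. It had 17.2 and 28.4 TPM in the depleted libraries, against 30.1 and 22.1 TPM in the controls. The groups overlapped, and the log2 difference of -0.21 was smaller than the gap between either pair of replicates. It was 0.13 without depleted replicate 1 and 0.51 with the trend of differences with coding length removed.

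In all, 7 of the 9 genes were higher in both depleted libraries than in both controls, and none was lower in both. The median log2 difference of the 9 was 0.65, against -0.16 over all genes tested. Among all 11623 genes tested, 26.8% were higher in both depleted libraries than in both controls and 37.6% were lower in both. The members were chosen on this contrast, so nothing is read from the comparison. All 9 passed the minimum of 1 TPM in at least 2 libraries.

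The order of the levels is given as a description, since B2M and HLA-C were listed with their higher levels already known. In the controls HLA-E (65.4 to 67.9 TPM), TAPBP (49.7 to 73.4 TPM) and HLA-C (52.2 to 58.5 TPM) followed B2M, and the range of TAPBP held those of the other two. In the depleted libraries TAPBP (194 to 253 TPM), HLA-C (166 to 191 TPM) and HLA-E (79.1 to 84.7 TPM) followed B2M in that order, with no overlap between neighbours. ERAP1 followed these in both controls, at 22.1 to 30.1 TPM, clear of HLA-B. In the depleted libraries its range of 17.2 to 28.4 TPM held that of HLA-B (20.4 to 24.3 TPM) and met that of TAP2 (11.3 to 17.6 TPM). TAP1 and TAP2 overlapped each other in both groups, and HLA-F came last in every library.

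Differences in these libraries moved with coding length, which bears on B2M first of all. The median log2 difference was 0.47 over the shortest of 5 equal length groups of tested genes (up to 732 nt), which holds B2M, against -0.85 over the longest (from 2457 nt), which holds ERAP1. In the shortest group 54.7% of genes were higher in both depleted libraries than in both controls, against 9.43% in the longest. B2M has a coding sequence of 357 nt, where the smooth trend over all genes stood at 0.57, and its log2 difference was 0.80 once that trend was removed. The other members are longer and lie where the trend is below 0: HLA-C became 1.74, TAPBP 2.15, TAP1 1.69 and TAP2 1.06. ERAP1, at 2844 nt, turned to 0.51. The part of the trend in these differences was not tested.

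**Figure D3:**
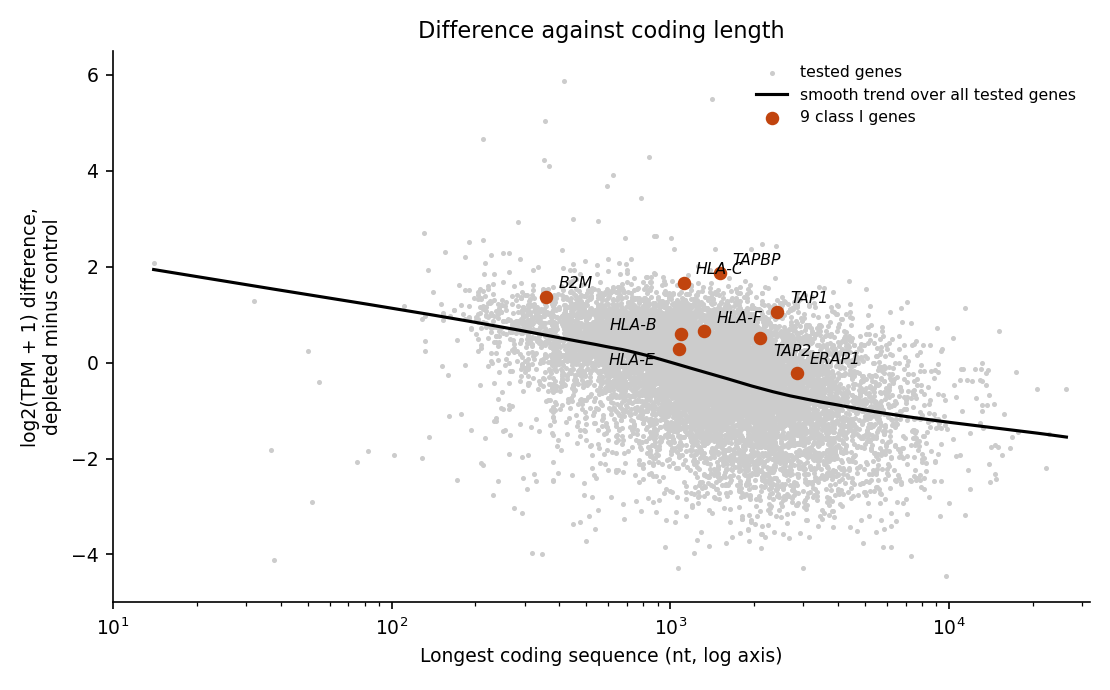
Difference in log2(TPM + 1), FBXO32-depleted minus negative control, against the longest coding sequence of each tested gene (nt, log axis), with the smooth trend over all genes as a line and the 9 class I genes in colour. All 9 lie above the line, B2M in the short range where the line is above 0 and TAP1, TAP2 and ERAP1 in the long range where it is below 0.

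The promoter windows of RefSeq, 250 bases before to 50 after a start site, covered 8 of the 9 genes (all but HLA-E). TAP1 and ERAP1 had 2 windows each, so there were 10. The doubled IRF sequence was found, on either strand, in 6 of the 10 windows, each of another gene, and in 3.57% of 35116 windows over all genes. The 30 bases around the first match of each are shown so that the spacing can be compared, with matched bases in capitals, and HLA-B and HLA-C are given at AGTTTC, as they held no full match. A pair of TTTC runs is the same motif read on the opposite strand.
B2M, chr15:44711363-44711392, plus strand: gagactctaaGAAAAGGAAACTGAAAacgg
TAPBP, chr6:33314079-33314108, minus strand: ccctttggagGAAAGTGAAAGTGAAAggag
TAP1, chr6:32853819-32853848, minus strand: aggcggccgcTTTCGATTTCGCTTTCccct
TAP2, chr6:32838778-32838807, minus strand: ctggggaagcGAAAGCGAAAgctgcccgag
ERAP1, chr5:96807924-96807953, minus strand: cgggctccacTTTCACTTTCggtcctgggg
HLA-F, chr6:29723268-29723297, plus strand: ctccccagagTTTCTCTTTCtctcccaacc
HLA-C, chr6:31272228-31272257, minus strand: tccactcccctgAGTTTCacttctcccaac
HLA-B, chr6:31357319-31357348, minus strand: cccactcccctgAGTTTCacttcttctccc

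B2M, TAPBP and TAP1 each held a pair of overlapping IRF matches, and TAP2, ERAP1 and HLA-F a single one. AGTTTC was found in 4 of the 10 windows, those of B2M, HLA-B, HLA-C and HLA-F, overlapping the IRF match in B2M and HLA-F, and in 14.8% of all windows. TGACG was found in 4 of the 10, those of B2M, HLA-B, HLA-C and TAP2, and in 24.6% of all windows. In B2M, HLA-B and HLA-C it began at positions -75, -106 and -105 from the start site, between the interferon element and a Y box. ATTGG was found in 6 of the 10, with none in TAP2 and TAPBP, and in 34.6% of all windows. ERAP1 and TAPBP both carried GAAAGTGAAA. A match is a run of letters and not a site known to be bound, and its part in the differences between the groups was not tested.

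**Figure D4:**
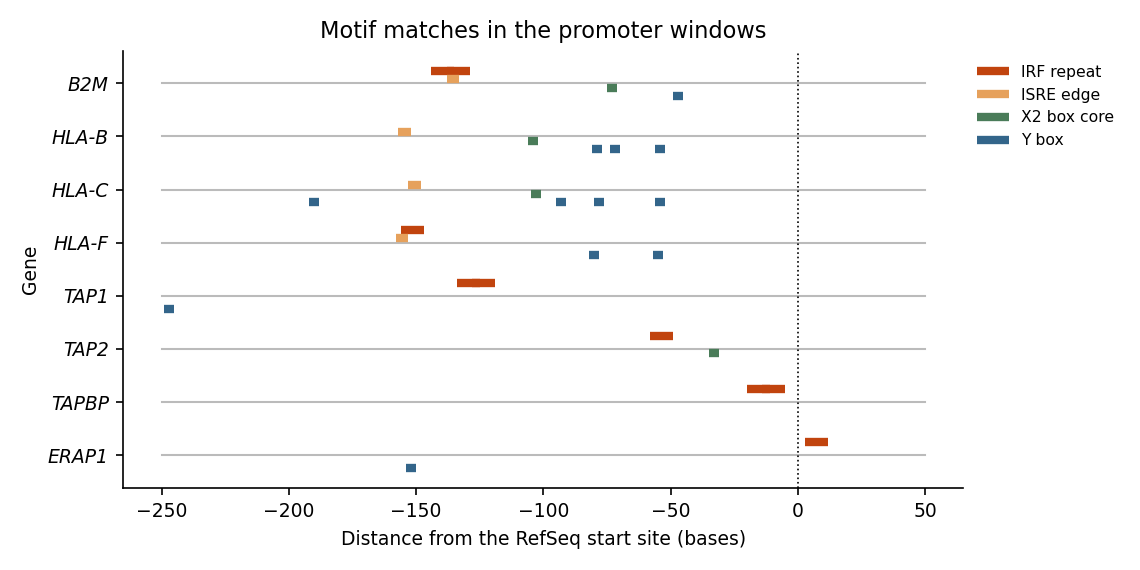
Matches of the 4 motifs in the promoter windows of 8 class I genes, by distance from the RefSeq start site in bases (dotted line at the start). The doubled IRF sequence lies between positions -156 and -119 in B2M, HLA-F and TAP1 and between -58 and 12 in TAP2, TAPBP and ERAP1, while X2 and Y boxes follow each other in B2M, HLA-B and HLA-C.

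The other genes of the pathway were taken from 6 lists, with 108 genes in all, of which 81 could be tested. Among them 4 were higher and 18 lower in the depleted libraries (limma, Benjamini-Hochberg adjusted p under 0.05 over all genes tested), beside 6.21% higher and 19.5% lower among all genes tested.

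Other class I and class I-like genes held 3 genes that were higher and 0 that were lower among 10 tested, with a median log2 difference of 0.78 (limma). Among all genes tested 6.21% were higher. At an unadjusted p under 0.05, 4 of the list were higher and 0 lower. The share of all genes at that unadjusted threshold was not counted, so nothing is read from such counts here or in the lists below. MR1, which presents vitamin metabolites to mucosal T cells, had 12.1 and 8.83 TPM in the depleted libraries, against 2.70 and 3.72 TPM in the controls (log2 fold change 1.44 ± 0.48, SE, limma adjusted p = 0.0147). FCGRT, the heavy chain of the neonatal Fc receptor and a partner of B2M, had 37.5 and 55.1 TPM in the depleted libraries, against 16.7 and 20.1 TPM in the controls (1.26 ± 0.43, limma adjusted p = 0.0193). RAET1G, a stress ligand of the killer cell receptor NKG2D, had 1.95 and 2.96 TPM in the depleted libraries, against 0.854 TPM and a listed 0 in the controls (limma adjusted p = 0.0174). RAET1G reached the minimum of 1 TPM in the depleted libraries only, so it entered the test through the group where it was high. It was not tested with a minimum of 5 TPM. Without negative control replicate 1 or 2 none of the 3 passed, without depleted replicate 2 only MR1 did, without depleted replicate 1 only RAET1G and FCGRT did, and without the filter on low values none did.

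PROCR, a class I-like receptor of protein C, had 150 and 170.4 TPM in the depleted libraries, against 105 and 99.3 TPM in the controls, and did not pass (limma adjusted p = 0.223). HLA-G did not exceed 0.281 TPM in any library, and CD1A, CD1B, CD1C, CD1E and AZGP1 were listed at 0 in all 4.

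Peptide loading and folding genes showed 0 higher and 0 lower among 10 tested (limma), with a median log2 difference of 0.05. At an unadjusted p under 0.05, 0 were higher and 1 lower, the glycoprotein folding sensor UGGT1, with 30.3 and 28.3 TPM in the depleted libraries, against 57.2 and 62.3 TPM in the controls. The chaperone CALR, a partner of tapasin in the loading complex, had 2063 and 1766 TPM in the depleted libraries, against 1914 and 1887 TPM in the controls. Its log2 fold change of 0.01 had a 95% confidence interval of -0.68 to 0.69 (limma adjusted p = 0.993). P4HB, a protein disulfide isomerase, stood at -0.34 in log2 units (limma adjusted p = 0.507). TAPBPL, a relative of tapasin, stayed under 1 TPM in all libraries and was not tested.

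Peptide generation genes, which cover proteasome subunits and peptidases, held 3 genes that were lower and 0 that were higher among 19 tested (limma), with a median of 0.18. Among all genes tested 19.5% were lower, so the 3 are not read as a trait of the list. At an unadjusted p under 0.05, 2 of the list were higher and 6 lower, with no share over all genes to set beside them. The 3 that fell are peptidases outside the endoplasmic reticulum, and nothing is read from that. THOP1, a cytosolic oligopeptidase that degrades peptides, had 27.9 and 10.4 TPM in the depleted libraries, against 55.9 and 41.9 TPM in the controls (log2 fold change -1.44 ± 0.43, limma adjusted p = 0.00644). LAP3, a leucine aminopeptidase, and NRDC, nardilysin, had log2 fold changes of -1.21 and -1.11 (limma adjusted p = 0.0372 and 0.0483). Neither passed with a block for the replicate number (limma adjusted p = 0.0785 for LAP3 and 0.0826 for NRDC) or with median-ratio scaling (0.0623 for LAP3 and 0.0916 for NRDC). With the coding-length trend removed 0 fell and 2 rose. The number that fell was 6 without depleted replicate 1, and 0 without depleted replicate 2, negative control replicate 1 or negative control replicate 2. The interferon-inducible catalytic subunits of the immunoproteasome did not pass. PSMB9 had 9.49 and 11.4 TPM in the depleted libraries, against 3.90 and 5.57 TPM in the controls (limma adjusted p = 0.0993), PSMB8 8.0 and 5.20 TPM in the depleted libraries, against 1.62 and 4.98 TPM in the controls (limma adjusted p = 0.149), and PSMB10 had a log2 fold change of 0.56. These 3 and UGGT1 were singled out after their values were seen. Of the genes with the highest levels, the proteasome assembly factor POMP and the constitutive subunit PSMB6 had log2 fold changes of 0.34 and 0.18 and did not pass (limma adjusted p = 0.536 and 0.778).

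Interferon signalling genes and regulators of class I transcription held 8 genes that were lower and 0 that were higher among 26 tested (limma), with a median of -0.45. Among all genes tested 19.5% were lower. At an unadjusted p under 0.05, 9 of the list were lower and 1 higher, with no share over all genes to set beside them. IRF1, an interferon-induced activator of class I genes, had 19.5 and 17.6 TPM in the depleted libraries, against 64.5 and 48.9 TPM in the controls (log2 fold change -1.55 ± 0.43, limma adjusted p = 0.00277). RELA, the NF-kB subunit, had 99.1 and 58.6 TPM in the depleted libraries, against 273 and 168 TPM in the controls (-1.48 ± 0.39, limma adjusted p = 0.00156). JAK2, a kinase of the interferon gamma receptor, had 0.359 and 0.216 TPM in the depleted libraries, against 2.28 and 7.67 TPM in the controls (limma adjusted p = 0.000121). JAK2 reached the minimum of 1 TPM in the controls only, so it entered the test through the group where it was high. It was not tested with a minimum of 5 TPM. STAT3 had 49.0 and 15.9 TPM in the depleted libraries, against 87.9 and 74.9 TPM in the controls (limma adjusted p = 0.00285). With negative control replicate 1 left out IRF1 did not pass (-1.35, limma adjusted p = 0.19), nor did JAK2 with negative control replicate 2 left out (limma adjusted p = 0.073). RELA no longer passed without depleted replicate 2 or negative control replicate 1, nor STAT3 without depleted replicate 2 or either control, or once the length trend was taken out (limma adjusted p = 0.118). The list's number of falls was 3 without depleted replicate 2, 1 with negative control replicate 1 left out, 4 with negative control replicate 2 left out, and 5 with a block for the replicate number.

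IFNGR2, the accessory chain of the interferon gamma receptor, had 65.0 and 99.8 TPM in the depleted libraries, against 42.4 and 45.7 TPM in the controls, and did not pass (limma adjusted p = 0.107), except with median-ratio scaling (1.06, limma adjusted p = 0.0424). NFYC, a subunit of the Y box factor NF-Y, had a fold change of -0.38 in log2 units (limma adjusted p = 0.517). NLRC5, the class I transactivator, stayed under 1 TPM in every library, with 0.366 and 0.270 TPM in the depleted libraries, against 0.877 and 0.583 TPM in the controls, and was not tested.

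Genes of class I turnover and repression held 7 genes that were lower and 1 that was higher among 13 tested (limma), with a median of -1.13. Among all genes tested 19.5% were lower and 6.21% higher. EZH2, the methyltransferase of Polycomb complex 2, which is known to repress class I genes in some cancers, had 6.3 and 5.17 TPM in the depleted libraries, against 69.3 and 37.3 TPM in the controls. That is a log2 fold change of -2.95 ± 0.45 by limma (adjusted p = 4.55e-09). It passed under each of the 11 alternatives run (adjusted p up to 0.0272). SUZ12, another core subunit of that complex, had 8.08 and 5.82 TPM in the depleted libraries, against 22.4 and 15.1 TPM in the controls (limma adjusted p = 0.0234, and 0.278 with the length trend removed). MARCHF8, a membrane-bound ubiquitin ligase for immune receptors, had 4.42 and 5.75 TPM in the depleted libraries, against 14.0 and 16.5 TPM in the controls (limma adjusted p = 0.0134, and 0.102 with the length trend removed). NBEAL2, a BEACH domain protein, had 0.978 and 0.960 TPM in the depleted libraries, against 7.04 and 3.93 TPM in the controls (limma adjusted p = 0.00335, and 0.514 with the length trend removed). NBEAL2 too reached the minimum of 1 TPM in the controls only, and it was not tested with a minimum of 5 TPM. SPPL3, an intramembrane protease that alters cell surface glycosylation, was the gene that rose, with 17.5 and 21.8 TPM in the depleted libraries, against 6.45 and 6.85 TPM in the controls (1.42 ± 0.46, limma adjusted p = 0.0119). The number of falls was 3 without depleted replicate 2, 1 with negative control replicate 1 left out and 2 with negative control replicate 2 left out. A block for the replicate number gave 4, as did median-ratio scaling, and removal of the length trend gave 1. SPPL3 did not pass with any 1 of those 3 libraries left out. TMEM127 and NBR1, both known to lead class I molecules to lysosomal breakdown, had log2 fold changes of 0.70 and 0.47 and did not pass (limma adjusted p = 0.227 and 0.486). Once the length trend was taken out NBR1 stood at 1.20 and passed (limma adjusted p = 0.0474).

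Class II genes, which serve antigen presentation to helper T cells, were near 0. The 13 genes summed to 3.58 and 3.75 TPM in the depleted libraries, against 9.84 and 6.12 TPM in the controls. Their regulator CIITA and 3 others were listed at 0 in all libraries. Of 3 tested, 0 were higher and 0 lower (limma), and at an unadjusted p under 0.05, 0 were higher and 1 lower. That was CD74, the invariant chain, with 1.39 and 0.965 TPM in the depleted libraries, against 3.76 and 2.79 TPM in the controls (limma adjusted p = 0.11). HLA-DMA, which edits class II peptides, had a fold change of 0.10 in log2 units (limma adjusted p = 0.901).

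**Figure D5:**
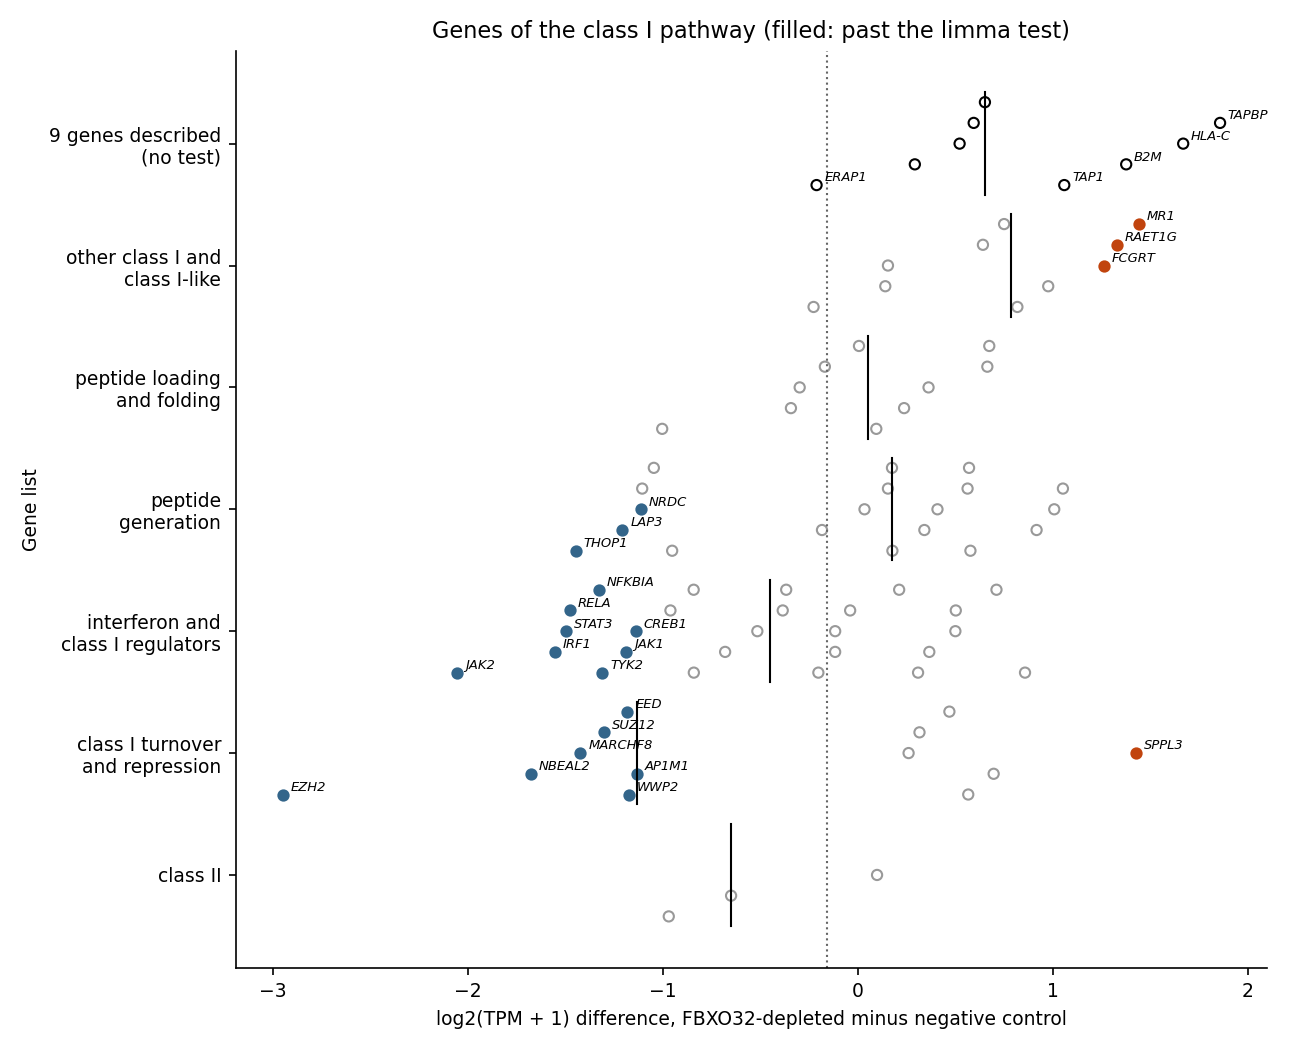
Difference in log2(TPM + 1), FBXO32-depleted minus negative control, for the 9 class I genes (no test) and the tested genes of 6 pathway lists, with filled points past the limma test, a bar at each list's median and a dotted line at the median of all genes. The 3 filled points of the class I-like list lie above 1, and the filled points of the regulator list lie at or below -1.

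The profiles most like that of B2M over the 4 libraries, by root mean square distance of centred log2(TPM + 1) among 8693 genes, were those of NINJ1 (0.0268), ATP6V1F (0.0292), OSTM1 (0.0314) and APH1B (0.0345). ATP6V1F, a subunit of the proton pump, had 301 and 409 TPM in the depleted libraries, against 114 and 164 TPM in the controls. The nearest to HLA-C were SLC2A12 (0.0603), SMAGP (0.0620), NME3 (0.0784) and SMPD1 (0.0837). NME3, a nucleoside diphosphate kinase, had 186 and 213 TPM in the depleted libraries, against 63.6 and 74.5 TPM in the controls. With 4 libraries in 2 groups, such likeness mostly repeats the size of the difference between the groups.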

How the data were processed

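Ribosome-protected fragments of 4 PANC-1 libraries were measured. Per the file headers, the authors' deposited values are TPM, with 1 column for each library, and each column sums to 1000000. Per the submitters' processing notes, fastp, Bowtie2 2.2.8, STAR, RSEM, DESeq2 and GRCh38 were used, with no order or role; no source used here gives the annotation or the reads counted. Columns named KO were read as FBXO32-depleted and those named NS as the negative control. Symbols came from a table of Ensembl identifiers (19702 genes had one), and positions and longest coding sequences from GENCODE 29.

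The log2(TPM + 1) values of the 11623 genes that reached 1 TPM in 2 or more libraries were tested with limma 3.58.1 (R 4.3.3), with trend and robust moderation and Benjamini-Hochberg adjustment over all of them at 0.05. With 2 residual degrees of freedom, SEs and p-values rest almost entirely on the spread pooled over genes of like level. A gene's own replicates count for little: LAP3 passed with 14.5 and 3.72 TPM in the depleted libraries. The labels do not say how the bioreplicates were separated, so that pooled spread is one between these libraries. On simulated data with 11623 genes limma recovered 88 of 100 simulated log2 changes of 2 and 4 of 100 of size 1, and called 4 of 11423 unchanged genes. The simulated noise was independent for each gene and library, and changes were placed only in genes above a set mean level. A deviation shared across a library was not simulated, so the 4 unchanged genes called do not measure false calls in these data.

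The members and the lists were chosen with earlier results of these data known. Genes named from a list are those called (with over 5 in a direction, the 4 with the smallest p) and the 2 uncalled genes with the highest mean TPM; 1 gene this rule names is not reported here. For B2M and HLA-C the 4 nearest profiles among genes with a mean of at least 5 TPM are named. The alternatives were median-ratio scaling, no filter, a minimum of 5 TPM, a pseudocount of 0.1, limma without trend and robust moderation, a replicate block, a fit with the coding-length trend taken out and leaving out each library.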

Additional observations from a re-analysis of the deposited data

How the results depend on the processing

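TPM keeps no depth and each group had 2 libraries, so a gene that did not pass is not shown to be unchanged. In the simulation a change of 1 on the log2 scale was mostly missed, under a stricter adjusted threshold than in these data. Of the 9 class I genes, 8 kept a positive log2 difference in every alternative run; B2M ranged from 0.80 to 1.63, HLA-C from 1.56 to 1.87 and TAPBP from 1.58 to 2.15. HLA-F had no value with a minimum of 5 TPM. The replicate number was entered as a block, although the labels do not say that it marks a shared culture and same-numbered libraries did not deviate together (correlation -0.05). The block changed the number of falls to 1 peptide generation gene, 5 regulators and 4 turnover genes. Where a count or value changed with a setting, the cause was not tested.

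Over all genes, 1251 were higher with median-ratio scaling, 207 higher and 1322 lower without the filter, and 1338 lower with the coding-length trend removed. Median-ratio scaling moved the median of all genes from -0.16 to 0.02 and gave 2 higher and 1 lower peptide generation genes, 1 higher regulator and 4 lower turnover genes. Without the filter there were 0 lower peptide generation genes, 0 higher class I-like genes, 2 lower regulators, 0 higher and 2 lower turnover genes and 1 lower class II gene. With the coding-length trend removed there were 1 higher loading gene, 2 higher and 0 lower peptide generation genes, 4 lower regulators and 2 higher and 1 lower turnover genes.

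Leaving out 1 library gave 37 to 646 genes higher and 347 to 2389 lower, 0 to 6 lower peptide generation genes, 0 to 2 higher class I-like genes, 1 to 7 lower regulators, 0 to 1 higher and 1 to 6 lower turnover genes, and a median of 0.79 to 0.83 over the 9 genes. Small log2 fold changes turned sign with the length trend removed in POMP (-0.15), PSMB6 (-0.059) and HLA-DMA (-0.011). With 1 library left out, CALR ranged from -0.11 to 0.12, PSMB6 from -0.10 to 0.45, NFYC from -0.98 to 0.21 and HLA-DMA from -0.14 to 0.34.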
